A study of Homo sapiens with 6 samples.

Results

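The genes described here are 48 that build and run the mitotic spindle, the kinetochore and the cleavage furrow. They were chosen by symbol and grouped by known role. That rule itself uses no measured value, but the members were chosen with earlier results of these data known. Their counts beside those of all genes are thus a description, and no test of the set was made. By role they are 5 of the spindle checkpoint, 3 of anaphase onset, 4 of the chromosomal passenger complex, and 6 of the inner and 10 of the outer kinetochore. The others are 10 mitotic kinesins, 6 spindle assembly factors, 3 of cytokinesis, and PRR11. All 48 were found among the 26255 gene symbols in each library, and all 48 had a mean FPKM of at least 1, so that each was among the 12203 genes tested. FPKM is a read number scaled by transcript length and library size, and levels of different genes are compared here only on this scale, which is per length.

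The libraries came from HCT116, an established human colorectal carcinoma cell line. The 3 groups of 2 libraries are parent cells and the cells that received siLINC01534-1 or siLINC01534-2. Both siRNAs are small interfering RNAs directed against the long noncoding RNA LINC01534. The dose and the time between transfection and harvest are not given for these libraries in the sources used here. No transfection of parent cells is described, and hence an effect of transfection and an effect of the siRNA cannot be told apart. The comparisons ask how the transcriptome of HCT116 differs in cells given siRNAs against LINC01534, here for the machinery that segregates chromosomes.

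During mitosis, microtubules of the spindle attach to chromosomes at kinetochores, protein assemblies that form on centromeric chromatin. Unattached kinetochores hold the spindle checkpoint on, which keeps CDC20 from activating the anaphase-promoting complex, and once it is satisfied securin is destroyed and separase opens cohesin. Transcripts of most of these genes are low in G1 and peak in G2 and M phase, and many of their promoters carry a cell cycle genes homology region (CHR) and CCAAT boxes, at which the MuvB complex with B-MYB and FOXM1, and NF-Y, are known to act. In bulk libraries such as these, fewer cells in G2 and M phase and less RNA per cell cannot be told apart.

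LINC01534 was examined first, since it is the target that the labels name. Parent had an FPKM of 0.285 and 0.571 for it, the libraries labelled siLINC01534-1 were listed at 0 and 0.283, and those labelled siLINC01534-2 had 0.660 and 0.551. The gene was under the expression filter and not tested. The mean of the libraries labelled siLINC01534-2 was 142% of the parent mean, so that no lower level of the target is seen in them. Levels this low rest on few reads, so that neither the knockdown nor the labels can be judged from them. The names of the groups here are those of the labels. The libraries detected 16513 to 16903 genes, and the depth estimated from the smallest FPKM steps was 8690000 to 10400000 reads. Of 8 epithelial marker genes, 6 were above an FPKM of 1 in all libraries, with summed FPKM of 2927 to 2932 with siLINC01534-1, 3335 to 3521 with siLINC01534-2 and 3458 to 3522 in parent. The summed FPKM of 5 fibroblast markers was 3.07 to 3.08 in parent, 5.30 to 5.98 with siLINC01534-1 and 3.81 to 4.29 with siLINC01534-2. Of these markers, 2 were at 0 in all libraries and 1 was above 1 in all. The highest value of a single fibroblast marker was 5.79, so that the sum of 5.98 was mostly 1 gene. That of 5 leukocyte markers lay between 0.702 and 1.95, with 2 at 0, and that of 3 endothelial markers between 0.0481 and 0.110. The part of these levels in the results was not tested.

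Spindle, kinetochore and cytokinesis transcripts were lower with both siRNAs, and further below parent with siLINC01534-1. Levels were compared by limma on log2(FPKM + 1), two-sided, with Benjamini-Hochberg adjustment over all 12203 genes and a threshold of 0.05. With siLINC01534-1, 42 of the 48 members (87.5%) were lower than parent and 0 were higher, where 24.5% of all genes tested were lower and 21.8% were higher. With siLINC01534-2, 33 members (68.8%) were lower and 0 were higher, beside 11.8% and 11.1% of all genes tested. The median log2 fold change of the members was -0.65 with siLINC01534-1 and -0.27 with siLINC01534-2, while over all genes tested it was 0.00031 and 0.0018. In percent of the parent mean, the members had a median of 63.3% with siLINC01534-1, from 18.5% for PRR11 to 106% for CENPH, and of 82.6% with siLINC01534-2, from 66.7% for NUSAP1 to 101% for SKA1. Past 2-fold, 6 members were lower with siLINC01534-1 (PRR11, NDC80, KIF14, DLGAP5, KIF20A and TPX2) and 0 with siLINC01534-2. Of the 12203 genes tested, 236 had a lower log2 fold change with siLINC01534-1 than TPX2, the least changed of these 6.

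The same members can be counted against both siRNAs, although the 2 comparisons share the parent libraries. Of the 48, 32 (66.7%) were lower with each siRNA, beside 6.52% of all genes tested. A further 10 were lower past the threshold with siLINC01534-1 and not with siLINC01534-2, NUF2 was so with siLINC01534-2 and not with siLINC01534-1, and CENPH, CENPK, SKA1, KNTC1 and KIF15 passed it with neither. When the mean of both siRNAs was compared with parent, 41 members (85.4%) were lower and 0 were higher, beside 20.1% and 17.1% of all genes tested. By the values alone, all 4 siLINC01534 libraries lay below both parent libraries for 42 members, which was so for 19.3% of all genes tested. For 37 members both siLINC01534-1 libraries lay below both siLINC01534-2 libraries and these below both parent libraries, beside 10.2% of all genes tested.

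**Figure D1:**
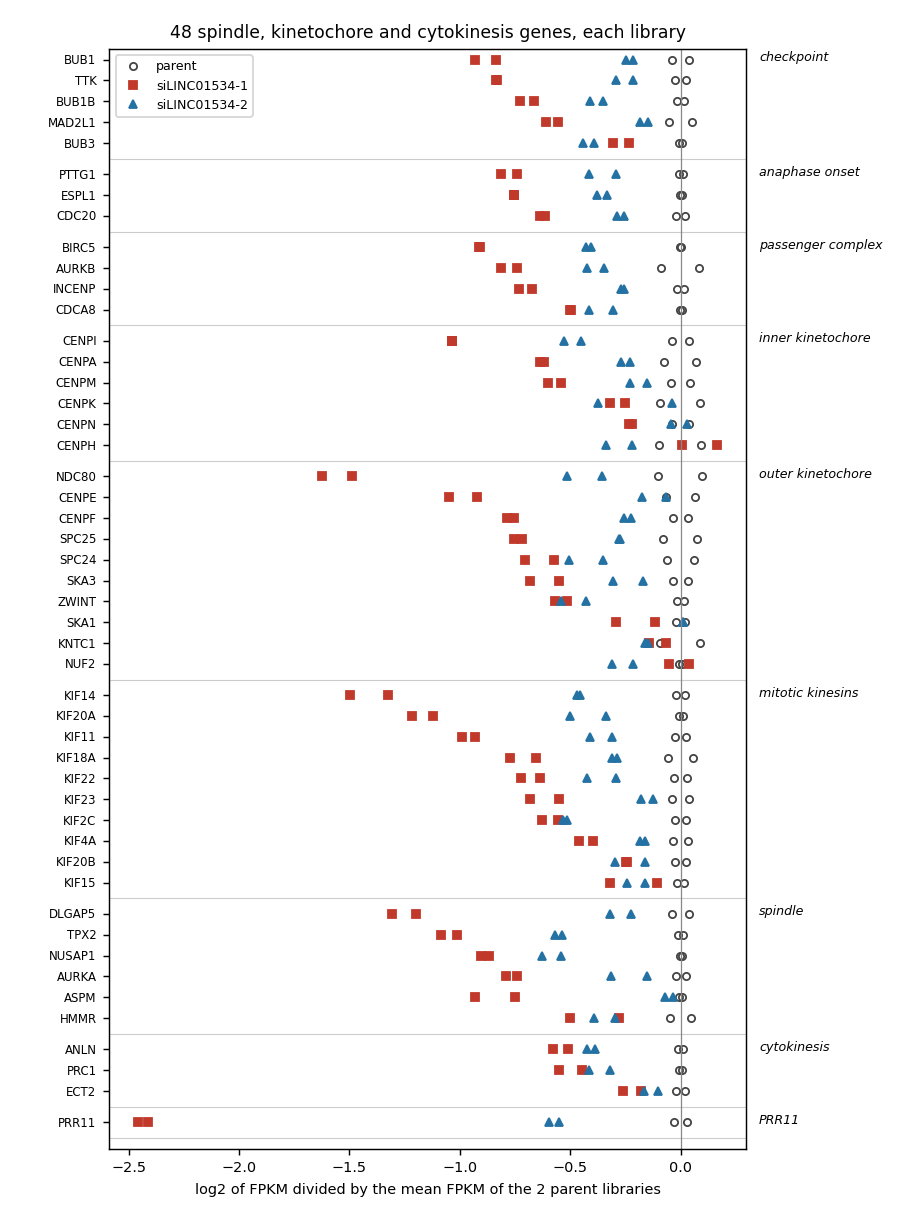
Each row is 1 of the 48 members, sorted by role, and each symbol is 1 library. The horizontal axis is the log2 of its FPKM over the mean FPKM of the 2 parent libraries. Open circles are parent, squares siLINC01534-1 and triangles siLINC01534-2. In 37 rows the 3 groups stand apart in the order siLINC01534-1, siLINC01534-2, parent.

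The calls with siLINC01534-1 rested less on single libraries than those with siLINC01534-2. With each of the 6 libraries left out in turn, 39 to 42 members were lower with siLINC01534-1. With siLINC01534-2, the 33 members became 12 without parent replicate 1, 13 without parent replicate 2, 19 without siLINC01534-2 replicate 1 and 14 without siLINC01534-2 replicate 2, and 29 without either siLINC01534-1 library. The calls over all genes fell along with them, from 1437 genes lower with siLINC01534-2 (11.8%) to 448 (3.67%) without parent replicate 1, 443 (3.63%) without parent replicate 2, 644 (5.28%) without siLINC01534-2 replicate 1 and 457 (3.74%) without siLINC01534-2 replicate 2. In those 4 fits the median log2 fold change of the members was -0.31 to -0.28. Over all 12 alternative settings tried, 38 of the 42 calls with siLINC01534-1 were kept, the exceptions being CENPN, KIF20B, HMMR and ECT2. For siLINC01534-2, 11 of the 33 calls were kept in all 12, those of BUB1B, BUB3, CDC20, ESPL1, BIRC5, ZWINT, KIF2C, TPX2, NUSAP1, ANLN and PRR11. With the 4 siLINC01534 libraries taken as 1 group, so that the gap between the siRNAs counted as spread, 6 members were lower than parent (CDCA8, ZWINT, KIF2C, NUSAP1, PRC1 and ANLN) in place of 41, which is 12.5% of the members beside 0.819% of all genes tested. The labels do not say whether libraries of a group came from separate cultures, so that p-values measure the spread between these libraries, which may be technical. An exact permutation test of 2 libraries against 2 cannot give a two-sided p below 0.333.

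PRR11, a proline-rich protein whose transcript peaks late in the cell cycle, was the member furthest below parent with siLINC01534-1. PRR11 had an FPKM of 20.8 and 20.01 in both parent libraries, 3.83 and 3.72 with siLINC01534-1 and 13.9 and 13.5 with siLINC01534-2. The groups did not overlap, and the level was 18.5% of parent with siLINC01534-1 and 67.1% with siLINC01534-2. The log2 fold change was -2.16 (standard error 0.051, adjusted p = 2.23e-05) with siLINC01534-1 and -0.54 (standard error 0.051, adjusted p = 0.0029) with siLINC01534-2 by limma, and the siRNAs differed by -1.62 (standard error 0.051, adjusted p = 6.58e-05). PRR11 is the neighbour of SKA2, a subunit of the Ska complex that links kinetochores to microtubules, and the genes are transcribed away from each other. In GRCh38.p14 their start sites on chromosome 17 lie at 59155746 on the plus strand and 59155186 on the minus strand, with 559 bases between them. SKA2 had an FPKM of 27.9 and 24.9 in both parent libraries, 5.97 and 6.47 with siLINC01534-1 and 20.4 and 20.9 with siLINC01534-2. Its order was that of PRR11, with log2 fold changes of -1.92 (standard error 0.070, adjusted p = 6.18e-05) and -0.34 (standard error 0.070, adjusted p = 0.024), and a difference between the siRNAs of -1.59 (standard error 0.070, adjusted p = 0.00014). The change of SKA2 with siLINC01534-2 passed the threshold in 8 of the 12 alternatives, with a highest adjusted p of 0.104 by limma.

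**Figure D2:**
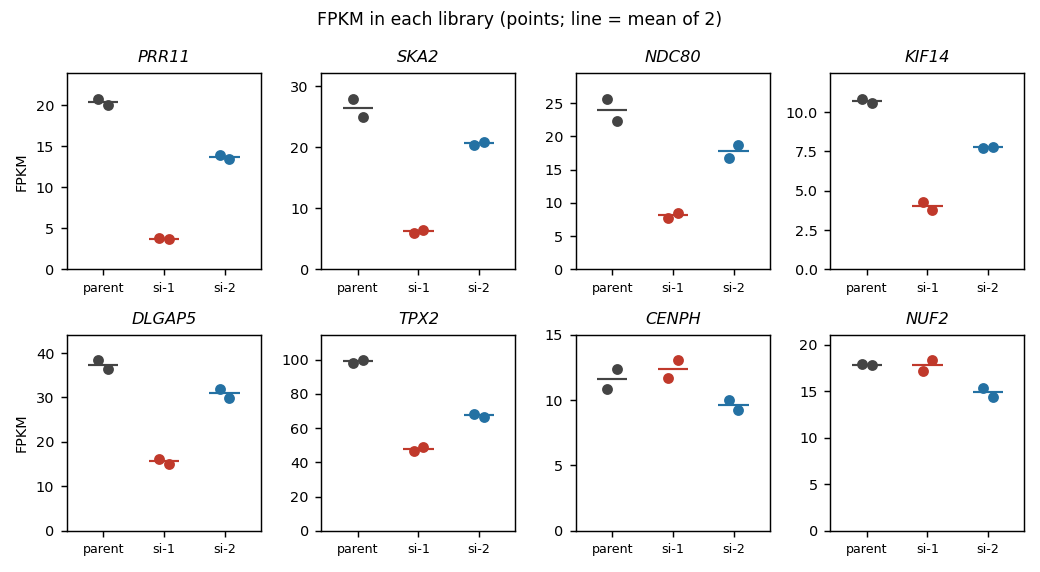
FPKM in each library (points) with the mean of the 2 libraries of a group (line), for 8 genes, in parent, siLINC01534-1 (si-1) and siLINC01534-2 (si-2). Each vertical axis starts at 0. PRR11, SKA2, NDC80, KIF14, DLGAP5 and TPX2 are lowest with siLINC01534-1, while CENPH and NUF2 are lowest with siLINC01534-2.

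The windows around both start sites are shown. With siLINC01534-1, PRR11 and SKA2 had the lowest log2 fold changes of the members and of the other kinetochore genes. The window of DLGAP5 is given since it holds the most CHR copies among the members, and that of CENPI since it holds neither motif. Each runs from 250 bases before to 50 after the annotated start in RefSeq (GRCh38.p14), on the strand of the gene. Capitals mark the CHR (TTTGAA) and the CCAAT box (CCAAT), searched on both strands, so that TTCAAA and ATTGG are the same motifs on the opposite strand.
PRR11, chr17:59155496-59155795, plus strand: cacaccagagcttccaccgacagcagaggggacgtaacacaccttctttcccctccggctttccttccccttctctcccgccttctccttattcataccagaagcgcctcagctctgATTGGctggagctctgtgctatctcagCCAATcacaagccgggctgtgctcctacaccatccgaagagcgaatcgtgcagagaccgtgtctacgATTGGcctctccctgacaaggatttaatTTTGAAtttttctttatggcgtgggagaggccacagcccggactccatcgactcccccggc
SKA2, chr17:59155137-59155436, minus strand: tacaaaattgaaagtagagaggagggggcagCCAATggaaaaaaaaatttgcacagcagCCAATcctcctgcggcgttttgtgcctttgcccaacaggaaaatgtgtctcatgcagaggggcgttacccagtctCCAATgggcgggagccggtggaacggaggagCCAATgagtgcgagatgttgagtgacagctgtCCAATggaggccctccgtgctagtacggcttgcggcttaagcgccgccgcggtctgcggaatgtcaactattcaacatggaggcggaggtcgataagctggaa
DLGAP5, chr14:55191536-55191835, minus strand: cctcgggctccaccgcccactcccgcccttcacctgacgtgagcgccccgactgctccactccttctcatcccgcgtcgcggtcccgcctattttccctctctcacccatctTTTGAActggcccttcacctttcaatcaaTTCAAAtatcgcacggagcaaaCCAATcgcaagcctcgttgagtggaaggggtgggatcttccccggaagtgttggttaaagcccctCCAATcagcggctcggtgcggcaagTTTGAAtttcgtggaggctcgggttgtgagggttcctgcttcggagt
CENPI, chrX:101100808-101101107, plus strand: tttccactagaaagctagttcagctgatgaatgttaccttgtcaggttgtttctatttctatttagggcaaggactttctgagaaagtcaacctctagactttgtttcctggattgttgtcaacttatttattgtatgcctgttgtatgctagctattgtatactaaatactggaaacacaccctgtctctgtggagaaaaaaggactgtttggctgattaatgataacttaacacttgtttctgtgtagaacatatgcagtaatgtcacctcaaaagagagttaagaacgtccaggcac
The PRR11 window holds 3 CCAAT boxes, with first bases 133, 106 and 39 bases before the start, and 1 CHR 11 bases before it. The SKA2 window holds 5 CCAAT boxes and 0 copies of the CHR, and the 2 windows do not overlap. In DLGAP5 there are 3 copies of the CHR and 2 CCAAT boxes. The bases just before the annotated start of CENPI have the form of an intron's end, and an ATG follows the start. That start may thus be that of a later exon and its window may not be the promoter, which holds for AURKB as well.

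Of the 48 members, 40 had a promoter window in the RefSeq table, among them CENPI and AURKB, whose windows may not be promoters. The CHR was present in 30 of the 40 (75%), beside 9.20% of the 9009 tested genes with a window and 15.43% of all 27305 windows. A CCAAT box was present in 30 (75%), beside 36.66% of tested genes and 35.7% of all windows. Both motifs were present in 23 (57.5%), beside 3.93% and 6.08%, and at least 2 CCAAT boxes in 19 (47.5%), beside 13.94% of tested genes. A CHR lay within 40 bases of the start in 27 members (67.5%), beside 2.33% of tested genes, a distance that was chosen after the positions were seen. The members were listed by role, and these motifs are a shared feature which that choice did not use.

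The median was below 0 for members with and for members without the motifs. The 23 members with both motifs had a median log2 fold change of -0.62 with siLINC01534-1 and -0.26 with siLINC01534-2, and 23 and 16 of them were lower. The 7 with a CHR alone had medians of -0.53 and -0.25, and 4 and 4 of them were lower. The 7 with a CCAAT box alone, AURKB among them, had -0.76 and -0.35, with 6 and 6 lower. The 3 with neither (CENPI, CENPE and KIF2C) had -0.84 and -0.42, with 3 and 2 lower. The windows of AURKB and CENPI may not be promoters, so that their classes are uncertain. Among the 354 tested genes with both motifs, the medians were -0.13 and -0.07, and 38.4% and 22.6% were lower. With siLINC01534-1 the tested genes with a CHR alone, a CCAAT box alone and neither had medians of 0.0088, 0.0079 and 0.001. Of these genes, 23.2%, 24.9% and 24.8% were lower with siLINC01534-1, and 13.9%, 12.9% and 11.2% with siLINC01534-2. Only the exact words were searched, so that a window without a match may still hold a variant of a motif. A match is a run of letters and not a bound site, and the classes were not tested against each other.

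**Figure D3:**
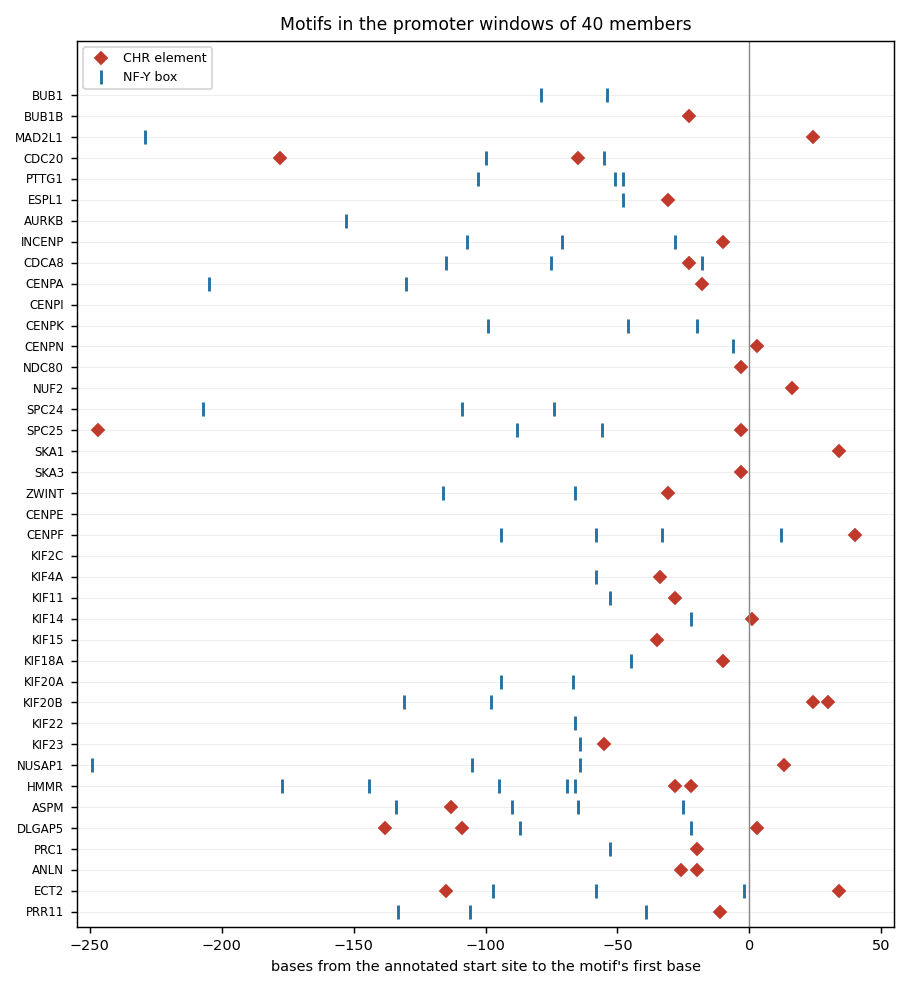
Positions of the CHR (diamonds) and of the CCAAT box to which NF-Y binds (bars) in the promoter windows of the 40 members that have one, 1 row each in the order of roles. The horizontal axis gives bases from the annotated start site to the motif's first base. In 27 rows a CHR lies within 40 bases of the start.

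All 5 checkpoint genes were lower with siLINC01534-1 and 4 with siLINC01534-2, with medians of -0.68 and -0.25. BUB1 is a kinase that recruits other checkpoint proteins to kinetochores. BUB1 had an FPKM of 45.3 and 42.96 in both parent libraries, 24.8 and 23.2 with siLINC01534-1 and 38.02 and 37.2 with siLINC01534-2. The groups did not overlap, and the log2 fold changes were -0.85 (standard error 0.050, adjusted p = 0.0002) and -0.23 (standard error 0.050, adjusted p = 0.03). BUB3 is the adaptor that brings BUB1 and BUBR1 to kinetochores. With siLINC01534-1 the FPKM of BUB3 was 163 and 155 and with siLINC01534-2 146 and 142, compared with 193 and 191 in parent. It was lower with each siRNA, at -0.27 (standard error 0.039, adjusted p = 0.0035) and -0.41 (standard error 0.039, adjusted p = 0.0029), and here siLINC01534-2 was the lower of both. MAD2L1 encodes MAD2, which inhibits CDC20. MAD2L1 had an FPKM of 106 and 98.8 in both parent libraries, 69.7 and 67.1 with siLINC01534-1 and 92.4 and 90.02 with siLINC01534-2. It fell with siLINC01534-1, at -0.57 (standard error 0.047, adjusted p = 0.00052), while its value with siLINC01534-2 was -0.16 (standard error 0.047, adjusted p = 0.058). BUBR1, encoded by BUB1B, and the kinase MPS1, encoded by TTK, were lower with each siRNA, at -0.68 and -0.37 and at -0.80 and -0.25.

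The 3 genes of anaphase onset were lower with each siRNA, with medians of -0.70 and -0.33. PTTG1 encodes securin, the inhibitor of separase. PTTG1 had an FPKM of 136 and 138 in both parent libraries, 77.98 and 81.9 with siLINC01534-1 and 112 and 103 with siLINC01534-2. Its log2 fold changes were -0.77 (standard error 0.051, adjusted p = 0.00027) and -0.35 (standard error 0.051, adjusted p = 0.0092). CDC20 activates the anaphase-promoting complex and had the highest parent mean of the members, 264. CDC20 had an FPKM of 260.5 and 268 in both parent libraries, 173 and 170.1 with siLINC01534-1 and 221 and 217 with siLINC01534-2. These values gave -0.62 (standard error 0.033, adjusted p = 0.00015) and -0.27 (standard error 0.033, adjusted p = 0.0059), and the groups of both genes stood apart in the order siLINC01534-1, siLINC01534-2, parent. Separase, encoded by ESPL1, was at 59.3% and 78.1% of parent.

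The chromosomal passenger complex, which corrects faulty attachments and later acts at the spindle midzone, was lower in all 4 subunits with each siRNA, with medians of -0.72 and -0.37. BIRC5 encodes survivin. BIRC5 had an FPKM of 93.5 and 93.6 in both parent libraries, 49.9 and 49.7 with siLINC01534-1 and 70.6 and 69.6 with siLINC01534-2. The libraries of a group were close together, and the log2 fold changes were -0.90 (standard error 0.031, adjusted p = 5.64e-05) and -0.41 (standard error 0.031, adjusted p = 0.0017). INCENP is the scaffold that activates Aurora B. INCENP had an FPKM of 30.8 and 31.6 in both parent libraries, 18.8 and 19.6 with siLINC01534-1 and 26.2 and 25.9 with siLINC01534-2. It was at -0.67 and -0.25. CDCA8 encodes borealin. With siLINC01534-1 the FPKM of CDCA8 was 34.3 and 34.4 and with siLINC01534-2 39.3 and 36.4, compared with 48.7 and 48.4 in parent. The change was -0.49 (standard error 0.046, adjusted p = 0.00085) and -0.35 (standard error 0.046, adjusted p = 0.0071), and the difference between the siRNAs was -0.13 (standard error 0.046, adjusted p = 0.065), with a 95% interval of -0.25 to -0.019. The kinase itself, AURKB, was at 58.4% and 76.6% of parent.

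The inner kinetochore was mixed. Of its 6 genes, 4 were lower with siLINC01534-1 and 2 with siLINC01534-2, with medians of -0.40 and -0.21. CENPI, a subunit of the constitutive centromere-associated network, had the lowest parent mean of the members, 6.85. CENPI had an FPKM of 6.67 and 7.02 in both parent libraries, 3.34 and 3.34 with siLINC01534-1 and 5.01 and 4.75 with siLINC01534-2. All 3 groups stood apart, with log2 fold changes of -0.85 (standard error 0.066, adjusted p = 0.00044) and -0.42 (standard error 0.066, adjusted p = 0.012). CENPH is a partner of CENPI in that network. CENPH had an FPKM of 10.9 and 12.4 in both parent libraries, 11.7 and 13.1 with siLINC01534-1 and 9.99 and 9.22 with siLINC01534-2. The siLINC01534-1 libraries overlapped with parent, and neither change passed the threshold, with 0.082 (standard error 0.088, adjusted p = 0.48) and -0.25 (standard error 0.088, adjusted p = 0.097). Its lowest library held an estimated 100 reads, for which counting alone gives a relative SD of 9.99%. CENPN, which reads the CENP-A nucleosome, was close to parent with siLINC01534-2. CENPN had an FPKM of 36.2 and 38.2 in both parent libraries, 31.98 and 31.6 with siLINC01534-1 and 36.1 and 37.9 with siLINC01534-2. The log2 fold changes were -0.22 (standard error 0.046, adjusted p = 0.013) and -0.0064 (standard error 0.046, adjusted p = 0.94), and the first passed the threshold in 9 of the 12 alternatives. CENPA, the centromeric histone H3 variant, was lower with each siRNA, at -0.58 and -0.23. CENPM was at -0.55 with siLINC01534-1, and CENPK at -0.25 (standard error 0.11, adjusted p = 0.12), which did not pass.

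In the outer kinetochore, 7 of 10 genes were lower with siLINC01534-1 and 6 with siLINC01534-2, with medians of -0.59 and -0.24. The subunits of the Ndc80 complex, the main microtubule receptor of the kinetochore, did not all have the same change. NDC80 had an FPKM of 25.6 and 22.3 in both parent libraries, 7.77 and 8.55 with siLINC01534-1 and 16.8 and 18.7 with siLINC01534-2. NDC80 was thus at 34.02% of parent with siLINC01534-1 and 74.03% with siLINC01534-2, with log2 fold changes of -1.45 (standard error 0.091, adjusted p = 0.00024) and -0.41 (standard error 0.091, adjusted p = 0.03). NUF2 pairs with NDC80 in the same complex. NUF2 had an FPKM of 17.9 and 17.8 in both parent libraries, 17.2 and 18.3 with siLINC01534-1 and 15.4 and 14.4 with siLINC01534-2. With siLINC01534-1 NUF2 lay on both sides of parent, at -0.0065 (standard error 0.055, adjusted p = 0.94), with a 95% interval of -0.14 to 0.13, and with siLINC01534-2 it was lower, at -0.25 (standard error 0.055, adjusted p = 0.03). SPC24 and SPC25, which join the complex to the inner kinetochore, were at -0.59 and -0.70 with siLINC01534-1 and -0.40 and -0.26 with siLINC01534-2, all past the threshold.

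The Ska complex was mixed as well. SKA1 had an FPKM of 14.6 and 14.2 in both parent libraries, 13.3 and 11.8 with siLINC01534-1 and 14.5 and 14.5 with siLINC01534-2. For SKA1 the changes were -0.19 (standard error 0.066, adjusted p = 0.062) and 0.011 (standard error 0.066, adjusted p = 0.93), neither past the threshold, beside -1.92 for SKA2 and -0.59 for SKA3 with siLINC01534-1, both past it. With siLINC01534-2 SKA3 was at -0.23 (standard error 0.068, adjusted p = 0.065). ZWINT, which brings the RZZ complex to the kinetochore, was the outer kinetochore gene furthest below parent with siLINC01534-2. ZWINT had an FPKM of 110.3 and 113 in both parent libraries, 75.2 and 78.03 with siLINC01534-1 and 82.9 and 76.6 with siLINC01534-2. Its log2 fold changes were -0.54 (standard error 0.049, adjusted p = 0.00075) and -0.48 (standard error 0.049, adjusted p = 0.0037), with a difference between the siRNAs of -0.056 (standard error 0.049, adjusted p = 0.4) and a 95% interval of -0.18 to 0.066. KNTC1, an RZZ subunit, did not pass with either siRNA, at -0.093 and -0.14. The kinesin CENPE was at -0.84 with siLINC01534-1 and -0.11 (standard error 0.077, adjusted p = 0.36) with siLINC01534-2, and CENPF was lower with each, at -0.74 and -0.23.

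Of the 10 mitotic kinesins, 9 were lower with siLINC01534-1 and 6 with siLINC01534-2, with medians of -0.63 and -0.32. KIF14 acts in cytokinesis with citron kinase. KIF14 had an FPKM of 10.8 and 10.6 in both parent libraries, 4.26 and 3.78 with siLINC01534-1 and 7.73 and 7.80 with siLINC01534-2. The mean with siLINC01534-1 was 37.6% of parent, with log2 fold changes of -1.22 (standard error 0.068, adjusted p = 0.00017) and -0.42 (standard error 0.068, adjusted p = 0.013). KIF2C encodes MCAK, a kinesin that depolymerizes microtubules. KIF2C had an FPKM of 51.8 and 53.7 in both parent libraries, 34.2 and 35.8 with siLINC01534-1 and 36.5 and 36.9 with siLINC01534-2. It was the kinesin furthest below parent with siLINC01534-2, at -0.58 (standard error 0.042, adjusted p = 0.00037) and -0.51 (standard error 0.042, adjusted p = 0.0021), and the siRNAs differed by -0.067 (standard error 0.042, adjusted p = 0.25), with a 95% interval of -0.17 to 0.038. KIF23, a subunit of centralspindlin, had the smallest change with siLINC01534-2. KIF23 had an FPKM of 49.4 and 46.9 in both parent libraries, 30.1 and 32.9 with siLINC01534-1 and 44.1 and 42.5 with siLINC01534-2. The values were -0.60 (standard error 0.057, adjusted p = 0.00087) and -0.15 (standard error 0.057, adjusted p = 0.12), and the second did not pass the threshold. KIF15 can take over part of the work of KIF11 in keeping the spindle bipolar. KIF15 had an FPKM of 7.38 and 7.21 in both parent libraries, 6.76 and 5.84 with siLINC01534-1 and 6.16 and 6.52 with siLINC01534-2. Neither change passed, with -0.19 (standard error 0.080, adjusted p = 0.11) and -0.18 (standard error 0.080, adjusted p = 0.17). KIF11 itself was lower with each siRNA, at -0.90 and -0.34, as were KIF20A (-1.13 and -0.41), KIF18A (-0.68 and -0.29) and KIF22 (-0.67 and -0.35). KIF4A and KIF20B were lower with siLINC01534-1, at -0.41 and -0.22, and had -0.16 and -0.21 with siLINC01534-2, which did not pass.

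Spindle assembly factors had the lowest median of the groups with more than 1 gene with siLINC01534-1, -0.81, against -0.30 with siLINC01534-2. All 6 were lower with the first siRNA and 5 with the second. DLGAP5 encodes HURP, which stabilizes kinetochore fibres. With siLINC01534-1 the FPKM of DLGAP5 was 16.3 and 15.1 and with siLINC01534-2 31.99 and 29.9, compared with 38.4 and 36.3 in parent. The groups stood apart, at -1.20 (standard error 0.060, adjusted p = 0.00013) and -0.26 (standard error 0.060, adjusted p = 0.032). NUSAP1, a microtubule-binding protein of the central spindle region, was the member furthest below parent with siLINC01534-2. NUSAP1 had an FPKM of 61.3 and 60.9 in both parent libraries, 32.7 and 33.5 with siLINC01534-1 and 41.99 and 39.5 with siLINC01534-2. Its log2 fold changes were -0.87 (standard error 0.043, adjusted p = 0.00013) and -0.57 (standard error 0.043, adjusted p = 0.0017). ASPM, a spindle pole protein, fell with siLINC01534-1, at -0.72 (standard error 0.071, adjusted p = 0.00097). ASPM had an FPKM of 7.87 and 7.81 in both parent libraries, 4.66 and 4.11 with siLINC01534-1 and 7.65 and 7.47 with siLINC01534-2. With siLINC01534-2 it was at 96.5% of parent, at -0.046 (standard error 0.071, adjusted p = 0.67) on the log2 scale. HMMR had the smallest fall of the group with siLINC01534-1. HMMR had an FPKM of 27.2 and 25.4 in both parent libraries, 18.6 and 21.7 with siLINC01534-1 and 20.002 and 21.4 with siLINC01534-2. The changes were -0.37 (standard error 0.084, adjusted p = 0.016) and -0.33 (standard error 0.084, adjusted p = 0.043), and the first passed in 10 of the 12 alternatives and the second in 5. TPX2, which activates Aurora A at the spindle, was at -1.03 and -0.55, and AURKA at -0.75 and -0.23, the latter with an adjusted p of 0.05.

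The 3 cytokinesis genes were lower with siLINC01534-1 and 2 of them with siLINC01534-2, with medians of -0.49 and -0.36. ANLN encodes anillin, a scaffold of the contractile ring. ANLN had an FPKM of 51.1 and 50.3 in both parent libraries, 34.01 and 35.6 with siLINC01534-1 and 38.8 and 37.8 with siLINC01534-2. It was at -0.53 (standard error 0.040, adjusted p = 0.00041) and -0.40 (standard error 0.040, adjusted p = 0.0036). ECT2 is the exchange factor that activates RhoA at the furrow. ECT2 had an FPKM of 37.6 and 36.5 in both parent libraries, 30.9 and 32.8 with siLINC01534-1 and 34.6 and 32.99 with siLINC01534-2. Its fall was small, at -0.21 (standard error 0.048, adjusted p = 0.016) with siLINC01534-1, and it had -0.13 (standard error 0.048, adjusted p = 0.11) with siLINC01534-2. PRC1, which bundles antiparallel microtubules of the midzone, was lower with each siRNA, at -0.49 and -0.36.

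The siRNAs were then compared with each other. Of the members, 33 (68.8%) were lower with siLINC01534-1 than with siLINC01534-2 and 3 (6.25%) were higher, beside 22.3% and 19.5% of all genes tested. The median difference was -0.36, against 0.00024 over all genes tested. Of the 32 members lower with each siRNA against parent, 25 were also lower with siLINC01534-1 than with siLINC01534-2. The matching share among the 796 tested genes lower with each siRNA was not counted, so that this number is a description only. The differences were largest for PRR11 (-1.62), NDC80 (-1.03), DLGAP5 (-0.94), KIF14 (-0.80), CENPE (-0.73) and KIF20A (-0.72). The 3 members higher with siLINC01534-1 were BUB3, by 0.15 (standard error 0.039, adjusted p = 0.031), CENPH, by 0.33 (standard error 0.088, adjusted p = 0.03), and NUF2, by 0.24 (standard error 0.055, adjusted p = 0.018). That count of 3 was 0 without siLINC01534-2 replicate 2, 1 without siLINC01534-2 replicate 1 or without either siLINC01534-1 library, and 2 at most in any of the 6 fits with a library left out. For 12 members the difference did not pass the threshold, among them CDCA8, ZWINT, KIF2C, PRC1 and ECT2.

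**Figure D4:**
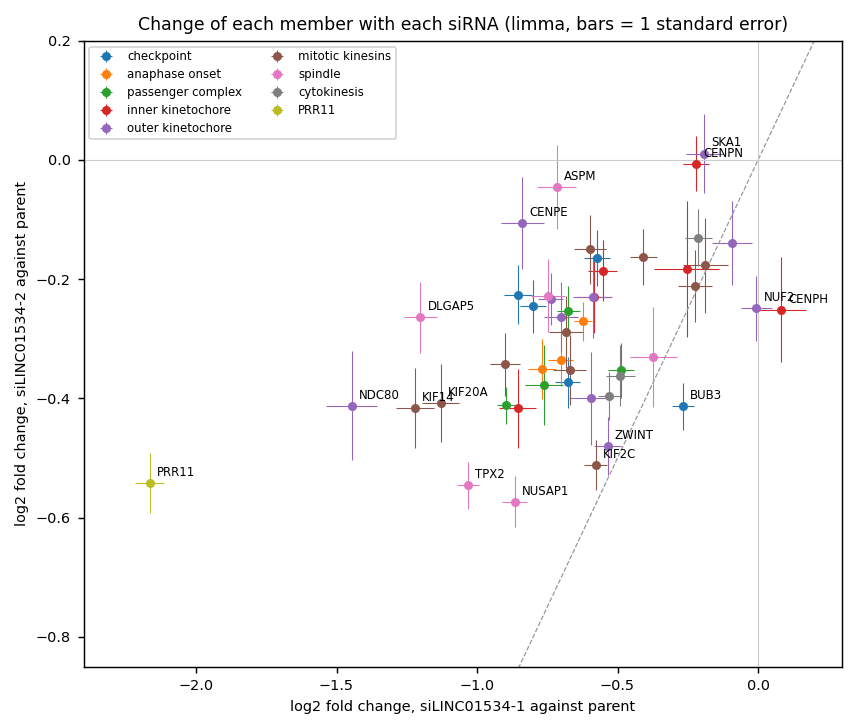
Log2 fold change against parent with siLINC01534-1 (horizontal axis) and siLINC01534-2 (vertical axis) for the 48 members, coloured by role, with bars of 1 standard error. The axes differ in scale, and the dashed line marks equal change. Of the points, 44 lie to the left of the line, and BUB3, CENPH and NUF2 lie to its right past the test's threshold. Both axes share the parent libraries.

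Short matches to the siRNAs were looked up in the 3′ UTRs of the members, in the longest coding transcript of GENCODE 44 on GRCh37, which is the build of the files. Bases 2 to 8 of the antisense strand of siLINC01534-1 pair with GAATAAA, a word that contains the polyadenylation signal AATAAA, and those of siLINC01534-2 with TTCGAGT, both searched on the transcript strand. GAATAAA was found in 11 of the 48 members (22.9%), beside 26.8% of 10565 genes tested and annotated there, and TTCGAGT in 0 of 48, beside 1.92%. The 29 bases around the match are given for PRR11 and SKA2, for the 3 other members of largest difference between the siRNAs, and for MYBL2, a regulator described further on, with the match in capitals and the coordinates of the match.
PRR11, chr17:57281325-57281331, plus strand: ataatcactgaGAATAAAgcagttgagta
SKA2, first match, chr17:57189449-57189455, minus strand: agataatatatGAATAAAgttcagccaaa
SKA2, second match, chr17:57189419-57189425, minus strand: ggatcaaatgaGAATAAAacgatttaaat
NDC80, chr18:2616609-2616615, plus strand: atatccatagtGAATAAAattgtctcagt
DLGAP5, chr14:55614865-55614871, minus strand: ttttcaacacaGAATAAAaaatgtactgt
KIF14, chr1:200521173-200521179, minus strand: attcgtaccatGAATAAAtctgatagttt
MYBL2, chr20:42345102-42345108, plus strand: tttttttggaaGAATAAAattgcctctct
The match in PRR11 lies 2333 bases after the stop codon in a 3′ UTR of 5078 bases. In BUB1, DLGAP5, NDC80 and TPX2 it lies within 40 bases of the transcript's end.

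Members with and without the match to siLINC01534-1 were both lower. The 11 with a match (BUB1, BUB3, MAD2L1, CENPN, NDC80, CENPE, KIF11, KIF14, TPX2, DLGAP5 and PRR11) had a median log2 fold change of -0.90 with siLINC01534-1 and -0.34 with siLINC01534-2, and 11 and 8 of them were lower. The 37 without it had medians of -0.59 and -0.26, and 31 and 25 were lower. Over all tested genes with a 3′ UTR, 41.3% of those with the match were lower with siLINC01534-1 and 11.7% with siLINC01534-2, beside 20.5% and 12.7% of those without it. Between the siRNAs, the median differences of the members were -0.63 with and -0.32 without the match, and those of the tested genes -0.13 and 0.03. Over the same tested genes, the medians with siLINC01534-1 were -0.14 with and 0.03 without the match. The median 3′ UTR was 1599 bases long in the members with a match and 621 in those without, so that match and length moved together. The classes were not tested against each other, and the part of the match in the change of any member was not tested.

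Other genes of the same machinery were read in 4 lists, which were not tested against the members. Over all genes tested, 24.5% were lower with siLINC01534-1 and 11.8% with siLINC01534-2. Of 22 further kinetochore and centromere genes tested, 7 were lower and 2 higher with siLINC01534-1, and 5 were lower and 1 higher with siLINC01534-2, with medians of -0.13 and -0.06. SKA2 was lowest of them and MIS12, of the complex that anchors Ndc80, was the highest, at 0.35 (standard error 0.069, adjusted p = 0.011) and 0.44 (standard error 0.069, adjusted p = 0.012). These passed in 11 and 8 of the 12 alternatives. Of 20 further checkpoint and anaphase-promoting complex genes, 7 were lower and 2 higher with siLINC01534-1, and 3 were lower and 0 higher with siLINC01534-2, with medians of -0.05 and -0.11. Among subunits of that complex CDC26 had the lowest mean change, at -1.23 (standard error 0.085, adjusted p = 0.00032) with siLINC01534-1 and 0.063 (standard error 0.085, adjusted p = 0.63) with siLINC01534-2, and ANAPC10 the highest, at 0.51 (standard error 0.15, adjusted p = 0.036) and 0.18 (standard error 0.15, adjusted p = 0.42). The first of these for ANAPC10 passed in 7 of the 12 alternatives.

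Condensin and cohesin genes were lower for 14 of 19 with siLINC01534-1 and 9 with siLINC01534-2, and 0 were higher, with medians of -0.39 and -0.16. The condensin subunit NCAPD2 was lowest, at -1.38 (standard error 0.032, adjusted p = 2.23e-05) and -0.47 (standard error 0.032, adjusted p = 0.0014), while the cohesin release factor WAPAL did not pass, at 0.091 and 0.16. Of 25 further spindle and cytokinesis genes, 17 were lower and 1 higher with siLINC01534-1, and 9 were lower and 0 higher with siLINC01534-2, with medians of -0.44 and -0.20. CEP55, which recruits the abscission machinery to the midbody, was the lowest. With siLINC01534-1 the FPKM of CEP55 was 13.7 and 12.1 and with siLINC01534-2 37.02 and 35.3, compared with 50.5 and 47.9 in parent. Its log2 fold changes were -1.85 (standard error 0.069, adjusted p = 6.94e-05) and -0.43 (standard error 0.069, adjusted p = 0.012), and the second passed in 8 of the 12 alternatives. HAUS8, of the augmin complex, was the 1 that was higher with siLINC01534-1, at 0.42 (standard error 0.11, adjusted p = 0.027), and it had -0.0088 with siLINC01534-2. The call of HAUS8 was kept in 7 of the 12 alternatives and lost without a filter and without any 1 of the 4 siLINC01534 libraries.

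**Figure D5:**
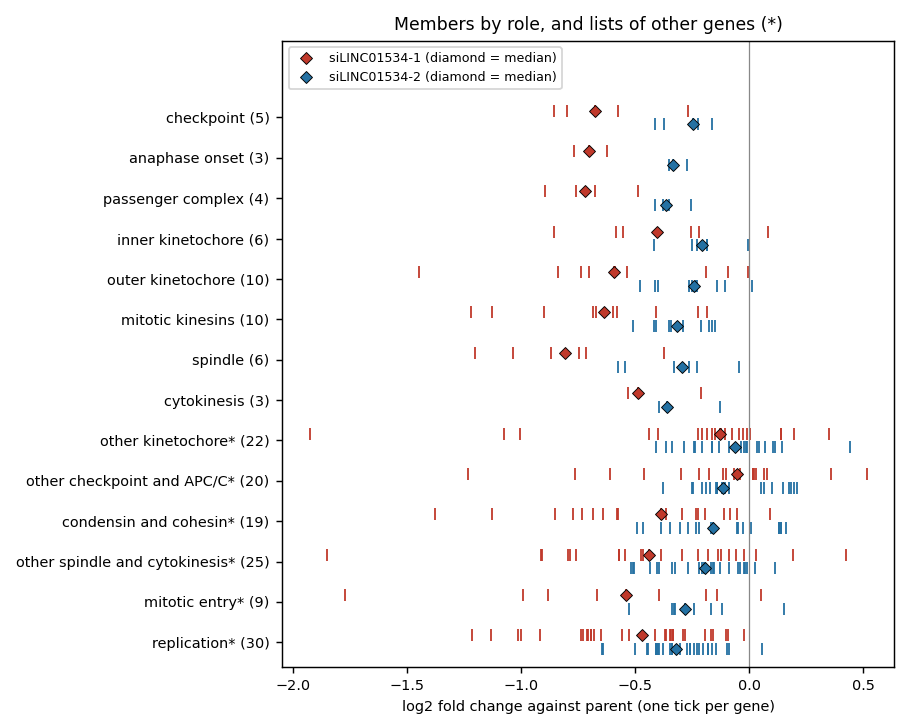
Log2 fold change against parent of each gene (tick) and the median of each group (diamond), for the members by role and for lists of other genes (marked with an asterisk), with the number of genes in parentheses. PRR11 is not drawn. Red is siLINC01534-1 and blue siLINC01534-2. The medians of all groups lie below 0, from -0.81 (spindle) to -0.05 (other checkpoint and anaphase-promoting complex) with siLINC01534-1.

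Genes that set mitotic entry, and the regulators known to act at promoters of this kind, were read beside the members. Of 9 mitotic entry genes, 7 were lower with siLINC01534-1 and 6 with siLINC01534-2, with medians of -0.54 and -0.28. CDK1 was at -0.99 (standard error 0.090, adjusted p = 0.00073) and -0.28 (standard error 0.090, adjusted p = 0.078), and CCNB1, its cyclin, at -0.88 (standard error 0.044, adjusted p = 0.00013) and -0.24 (standard error 0.044, adjusted p = 0.018), the latter past the threshold in 8 of the 12 alternatives. The kinase PLK1 was at -0.91 and -0.51 and the proliferation marker MKI67 at -1.11 and -0.41, all past the threshold. Of 17 regulators, 7 were lower and 3 higher with siLINC01534-1, beside 24.5% and 21.8% of all genes tested. With siLINC01534-2, 4 were lower and 1 higher, beside 11.8% and 11.1%. The regulators ran from -2.34 to 0.95 with siLINC01534-1 and from -1.01 to 0.38 with siLINC01534-2, and the lowest with siLINC01534-2 is not among those named here. MYBL2, which encodes B-MYB, differed most between the siRNAs, and its 3′ UTR holds the match to siLINC01534-1 given above, 27 bases from the end. MYBL2 had an FPKM of 65.1 and 68.8 in both parent libraries, 12.2 and 12.7 with siLINC01534-1 and 68.6 and 66.5 with siLINC01534-2. It was thus lower with siLINC01534-1 and overlapped with parent with siLINC01534-2, at -2.34 (standard error 0.046, adjusted p = 1.96e-05) and 0.013 (standard error 0.046, adjusted p = 0.86). FOXM1 was lower with each siRNA. FOXM1 had an FPKM of 57.3 and 55.5 in both parent libraries, 34.7 and 37.6 with siLINC01534-1 and 40.6 and 37.5 with siLINC01534-2. Its log2 fold changes were -0.63 (standard error 0.060, adjusted p = 0.00086) and -0.52 (standard error 0.060, adjusted p = 0.005), and the difference between the siRNAs was -0.11 (standard error 0.060, adjusted p = 0.2), with a 95% interval of -0.26 to 0.04. CDKN1A, which encodes the cell cycle inhibitor p21, was higher with each siRNA. CDKN1A had an FPKM of 132 and 135 in both parent libraries, 259 and 256 with siLINC01534-1 and 169 and 178 with siLINC01534-2. Its rise was 0.95 (standard error 0.038, adjusted p = 7.85e-05) with siLINC01534-1 and 0.38 (standard error 0.038, adjusted p = 0.0035) with siLINC01534-2. Whether these regulators had a part in the levels of the members was not tested.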

How the data were processed

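Poly(A) RNA of HCT116 cells was sequenced in 6 libraries, 2 each of parent, siLINC01534-1 and siLINC01534-2. The authors aligned single-end reads to hg19 with TopHat2 2.0.13 and Bowtie2 2.2.3, used SAMtools 0.1.19, and deposited FPKM from Cufflinks 2.2.1 (Cuffnorm) for 26255 gene symbols. The annotation is not given in the sources used here. The labels give 2 libraries per group and the study's methods 3 cultures, and the kits named for RNA extraction differ. FPKM hold no counts, so that depth was estimated from the FPKM of genes with single reads and transcript lengths, and intervals cover the spread between libraries only. Groups and replicate numbers came from the labels, and no library was left out.

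From the deposited FPKM, log2(FPKM + 1) was tested for genes with a mean of at least 1 (12203 genes) with limma 3.58.1 in R 4.3.3 (lmFit, contrasts.fit, eBayes with trend), 1 mean per group, two-sided, Benjamini-Hochberg adjusted over all genes, threshold 0.05. The pseudocount of 1 understates the change of low genes. Steps were tested on simulated data. Alternatives were a pseudocount of 0.1, no filter, a mean of at least 5, median scaling, a replicate block, no trend, each library left out in turn, and the siLINC01534 libraries as 1 group. The members, gene lists and tests were chosen with earlier results of these data known. By role, values of all libraries are given for the genes with the lowest and highest change with each siRNA and the largest difference between them, for members called against the majority, and for SKA2, FOXM1, MYBL2, CDKN1A and LINC01534. CEP55 is shown as the lowest of its list. Other genes named are CDK1, CCNB1, PLK1, MKI67 and the lowest and highest of each further mitotic list by the mean of both siRNAs. The words searched in 3′ UTRs follow from the siRNA sequences in the study's methods. Promoters came from RefSeq (GRCh38.p14) and 3′ UTRs from GENCODE 44 on GRCh37.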

Additional observations from a re-analysis of the deposited data

Results flagged for a closer look

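The results given here were singled out because the effects of the 2 siRNAs differed by the test of the difference itself (limma, siLINC01534-1 minus siLINC01534-2, adjusted p under 0.05 over all genes tested). Of the 48 members, 36 met this, beside 5096 of the 12203 genes tested. All values are log2 differences with 2 libraries in each group. The checkpoint genes had -0.63 for BUB1, -0.30 for BUB1B, 0.15 for BUB3, -0.41 for MAD2L1 and -0.55 for TTK. For anaphase onset the differences were -0.35 for CDC20, -0.42 for PTTG1 and -0.37 for ESPL1. In the passenger complex they were -0.38 for AURKB, -0.42 for INCENP and -0.49 for BIRC5. Inner kinetochore genes had -0.35 for CENPA, 0.33 for CENPH, -0.44 for CENPI, -0.37 for CENPM and -0.21 for CENPN. Among outer kinetochore genes the values were -1.03 for NDC80, 0.24 for NUF2, -0.44 for SPC25, -0.36 for SKA3, -0.73 for CENPE and -0.50 for CENPF. The kinesins had -0.24 for KIF4A, -0.56 for KIF11, -0.80 for KIF14, -0.39 for KIF18A, -0.72 for KIF20A, -0.32 for KIF22 and -0.45 for KIF23. Spindle assembly factors differed by -0.52 for AURKA, -0.49 for TPX2, -0.29 for NUSAP1, -0.67 for ASPM and -0.94 for DLGAP5. The log2 difference was -0.14 for ANLN and -1.62 for PRR11. Outside the members, the values were -1.59 for SKA2, -1.30 for CDC26, -0.91 for NCAPD2, -1.42 for CEP55, 0.43 for HAUS8, -2.35 for MYBL2, 0.57 for CDKN1A, -0.71 for CDK1, -0.64 for CCNB1, -0.40 for PLK1 and -0.70 for MKI67. No group held enough libraries to look for a single library that stands far from the others, and no explanation of the differences was tested.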

How the results depend on the processing

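With a pseudocount of 0.1, no filter, a mean FPKM of at least 5, median scaling and limma without trend, the counts of members lower stayed within 1.5 times of those given and no member or named gene changed sign. Median scaling moved the median of all genes by less than 0.1. With the 4 siLINC01534 libraries as 1 group, 6 members were lower than parent in place of 41, and 361 genes were past the threshold; by construction this setting counts the gap between the siRNAs as spread. With 1 library left out, its group is assumed to vary like the others. The members lower then ranged from 39 to 42 with siLINC01534-1, from 12 to 29 with siLINC01534-2 and from 37 to 42 for the mean of both siRNAs, those lower with siLINC01534-1 than with siLINC01534-2 from 29 to 32, and those higher from 0 to 2. The median log2 fold change of the members ranged from -0.65 to -0.64 with siLINC01534-1, from -0.31 to -0.27 with siLINC01534-2, from -0.48 to -0.45 for the mean of both, and from -0.38 to -0.33 for the difference. Some values near 0 changed sign in these fits, and none of them passed the threshold in any of the fits. Their ranges were -0.0059 to 0.17 for CENPH, -0.049 to 0.037 for NUF2 with siLINC01534-1, -0.18 to 0.16 for HAUS8, -0.026 to 0.052 for MYBL2, -0.045 to 0.032 for CENPN, -0.0068 to 0.028 for SKA1, -0.054 to 0.18 for CDC26, -0.040 to 0.40 for ANAPC10 with siLINC01534-2, -0.17 to 0.0034 for CENPH for the mean of both, and -0.15 to 0.065 for HMMR, -0.10 to 0.081 for KIF15, -0.22 to 0.077 for CENPK, -0.11 to 0.00071 for ZWINT, -0.074 to 0.050 for KIF20B for the difference. Among all results of single genes and settings, 20 reversed, 233 were no longer past the threshold, 18 newly passed it and 2816 were the same. The causes were not tested. The labels do not say whether replicate numbers pair the samples, and the main fit did not pair them. Over 12203 genes, the residuals of libraries that share a number correlated at 0.11 between parent and siLINC01534-1, at 0.027 between parent and siLINC01534-2 and at -0.046 between the siRNAs. A fit with a replicate block gave 41 members lower with siLINC01534-1, 27 with siLINC01534-2, 40 for the mean of both, and 33 lower and 3 higher for siLINC01534-1 against siLINC01534-2. Depth limits low members most, and 2 libraries per group limit the estimate of the spread for all of them.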

Other observations

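DNA replication genes, which act in S phase, were lower along with the mitotic genes. The 30 genes include PCNA, the RFC genes and genes of the origin complexes, the MCM helicase, the GINS complex, the replicative polymerases and nucleotide supply. Of these 30, 26 were lower with siLINC01534-1 and 23 with siLINC01534-2, and 0 were higher with either (limma adjusted p under 0.05). Of all genes tested, 24.5% were lower and 21.8% higher with siLINC01534-1, and 11.8% and 11.1% with siLINC01534-2. The medians on the log2 scale were -0.47 and -0.32. Between the siRNAs 17 were lower with siLINC01534-1 and 1 was higher, beside 22.3% and 19.5% of all genes tested. The median difference of the 30 genes was -0.17. The CHR was found in 1 of the 27 replication genes with a promoter window (3.7%) and a CCAAT box in 17 (62.96%). Over all tested genes with a window, the shares were 9.20% and 36.66%. Each motif was found in 30 of the 40 spindle, kinetochore and cytokinesis genes with a window. In the lists closer to these in function, the CHR was found in 11 of 23 other spindle and cytokinesis genes (47.83%), 7 of 14 condensin and cohesin genes (50%) and 5 of 18 other kinetochore genes (27.78%), and in 3 of 19 other checkpoint and anaphase-promoting complex genes (15.79%).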
